A study of Homo sapiens with 6 samples.

Results

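The comparison is between hFOB 1.19 cells expressing H3.3-G34W and the same cells expressing H3.3-WT. Its members are the libraries whose titles name these lines, 4 of the 6 samples in the series, 2 per group. hFOB 1.19 cells descend from the bone-forming cells of a human fetus and are kept dividing by a viral T antigen that loses its activity at higher temperatures; all samples were grown at 34 °C. Each group was transduced with a lentivirus that also encodes dTomato and was sorted for it as a population, so no group is 1 clone. The G34W and WT groups received HA-tagged H3.3 made from a Drosophila cDNA, and the empty vector (EV) group received the vector alone. The bulk RNA-seq libraries were made from poly(A) RNA. The genotype field of the labels assigns the G34W and WT libraries the other way round from the titles. Groups here follow the titles, and if the field were right every direction given would turn over. By qPCR, the authors reported SCUBE3, a gene described below, as lower in G34W than in WT cells. The libraries titled G34W were also below those titled WT for this gene.

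H3.3 is the histone H3 variant that is placed into chromatin outside of DNA replication, at active genes, enhancers and repeats. The glycine replaced in H3.3-G34W lies close to the lysine at which methylation (H3K36) marks transcribed genes and keeps Polycomb silencing away. The tryptophan form is known from giant cell tumour of bone, where it is carried by the stromal cells of the osteoblast lineage.

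The deposited unit is a normalised signal, an estimated count scaled by the authors, and all values below are in it. The deposited table gives no read counts. Of the values under 10 steps, 64.6 to 74.2% in each library lay within 0.02 steps of a multiple of 1 step. The step was 0.512 and 0.569 in the G34W libraries, 0.555 and 0.729 in the WT libraries and 0.625 in EV replicate 2. If a step is 1 read, the sums stand for 75838100 and 78599700 reads in G34W, 73429200 and 65904700 in WT and 67197800 in EV replicate 2. The values summed to 38821100 and 44687100 in the G34W libraries, 40778700 and 48024600 in the WT libraries and 41985200 in EV replicate 2. In the text, EV alone also stands for EV replicate 2. EV replicate 1 was not used as a check, because it was listed at 0 for 8048 (60.8%) of the genes described here. Of 35639 genes in the table, 24115 had a value above 0 in at least 1 of the 4 libraries compared and 13419 had a mean above 50 over them. Just above that mean were TCEANC at 50.05 and TAC3 at 50.08, and just below it HCN2 at 49.99 and LAD1 at 49.99.

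G34W replicate 1 stood apart from the other libraries. Across genes, which are not independent replicates, its log2 values correlated with the other 4 libraries at 0.939 to 0.947, while those 4 correlated with one another at 0.964 to 0.977. Genes with a value in G34W replicate 1 of at least 10 times the highest in G34W replicate 2, both WT libraries and EV replicate 2 were set aside, and the source of their signal was not tested. There were 185 of them, 1.38% of the genes above the mean, which left 13234 kept genes. At the threshold of 10 times, GCNT4 (10.07 times) and MARVELD3 (10.09) lay just inside and SLC38A4 (9.90) and MSANTD3-TMEFF1 (9.70) just outside. Genes with a smaller excess in G34W replicate 1 stayed in. Several gene lists below are therefore also given for each G34W library alone.

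Osteoblast lineage markers were read first as a check of the label. SPARC, a bone matrix glycoprotein, had 73806 and 85409 in the G34W libraries, 76069 and 79359 in the WT libraries and 72998 in EV replicate 2. COL1A2, a chain of type I collagen, had 91016 and 138799 in G34W, 98769 and 90034 in WT and 111335 in EV. RUNX2, the transcription factor that starts osteoblast differentiation, had 236 and 445 in G34W, 387 and 429.7 in WT and 573 in EV. These markers were present in all 5 libraries, and their G34W and WT values overlapped. Other markers of this lineage were nearly absent: SP7, IBSP, DLX5, DMP1 and OMD were under 10 in each of the 5 libraries. BGLAP, osteocalcin, had a mean under 50 and was not fitted, with 4.08 and 27.4 in G34W, 44.9 and 39.3 in WT and 5.55 in EV, so that EV stood with G34W below WT. The value of ALPL, the bone alkaline phosphatase, was 1216 in G34W replicate 1 and 107 in G34W replicate 2, on either side of the WT values of 245 and 236. Over the 23 genes of the list for bone matrix and osteoblasts, the summed values were 218967 and 289416 in G34W, 227865 and 237771 in WT and 246476 in EV replicate 2, with COL1A2 the most abundant.

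Between G34W and WT, limma on log2(value + 1) of the 4 libraries gave 0 of 13419 genes with an adjusted p under 0.05 (0.0%). At an unadjusted p under 0.05, 187 genes were higher (1.39%) and 168 lower (1.25%) in G34W. The authors, using the count model of DESeq2, did report differential genes between G34W and WT, with SCUBE3 the most significantly reduced. Their model was not rerun, because the deposited values are not whole counts. Without a trend of the prior variance with level, limma gave 2 genes, ABHD14A-ACY1 and AP002748.5, and without the filter on low values 1, AP002748.5. The other fits of these 4 libraries, and the fit with EV replicate 2 added, gave 0 each. A fit with both EV libraries also gave 0, with 4 genes at an unadjusted p under 0.05, but EV replicate 1 was listed at 0 for most genes, so this 0 says nothing about stability. The count turned on single libraries. It was 226 genes without G34W replicate 2, of which 206 were higher and 121 belonged to the genes set aside. The count was 26 without WT replicate 1, 2 without WT replicate 2 and 0 without G34W replicate 1. In each of these fits, the lone sample of a group is assumed to vary like the other group. The p-values measure only the spread between these samples. For RNA-seq the authors collected cells in duplicate and do not state whether the duplicates came from separate infections. The spread between transduced populations may therefore not be included. With 2 libraries in each group, the smallest two-sided p that exact permutation of the labels allows is 0.333. No gene named below passed the test in the fit of the 4 libraries, where the lowest adjusted p among them was 1, so all are given as a description; an SE, where printed, is the standard error of the log2 difference from limma.

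Of the 13234 kept genes, both G34W libraries lay above both WT libraries for 1349 (10.2%) and below both for 1983 (15.0%). These genes are called higher and lower below; the percentages are the background for the counts by function, and nothing is read from them here, since the genes were sorted on this same contrast. The distances were mostly short. The median log2 difference between the group means was 0.43 for the higher and -0.36 for the lower genes, and the median distance between the nearest G34W and WT libraries was 0.14 and -0.11. That distance reached 0.5 for 159 higher and 133 lower genes, and 1 for 34 and 18. The median of all kept genes was -0.07, with -0.20 in G34W replicate 1 and 0.04 in G34W replicate 2. When each library was rescaled to the same median, 1797 genes were higher and 1900 lower, and they included 84.0% of the higher and 72.7% of the lower genes of the deposited scale. The surplus of lower over higher genes thus depended in part on the scaling.

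EV replicate 2 took no part in sorting the genes into higher and lower. It lay on the WT side of both G34W libraries for 946 of the 1349 higher genes (70.1%) and for 1289 of the 1983 lower genes (65.0%). With the nearest libraries of the groups at least 0.5 apart, the share was 77.4% of the higher and 84.2% of the lower genes. Genes sorted so that both G34W libraries lie beyond both WT libraries have G34W values at the end of the range, and a further library falls short of them for many such genes by the sorting alone. The shares were not tested, and nothing is read from them. Measured from EV replicate 2 in place of WT, the median log2 difference was 0.30 for the higher and -0.23 for the lower genes.

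**Figure D1:**
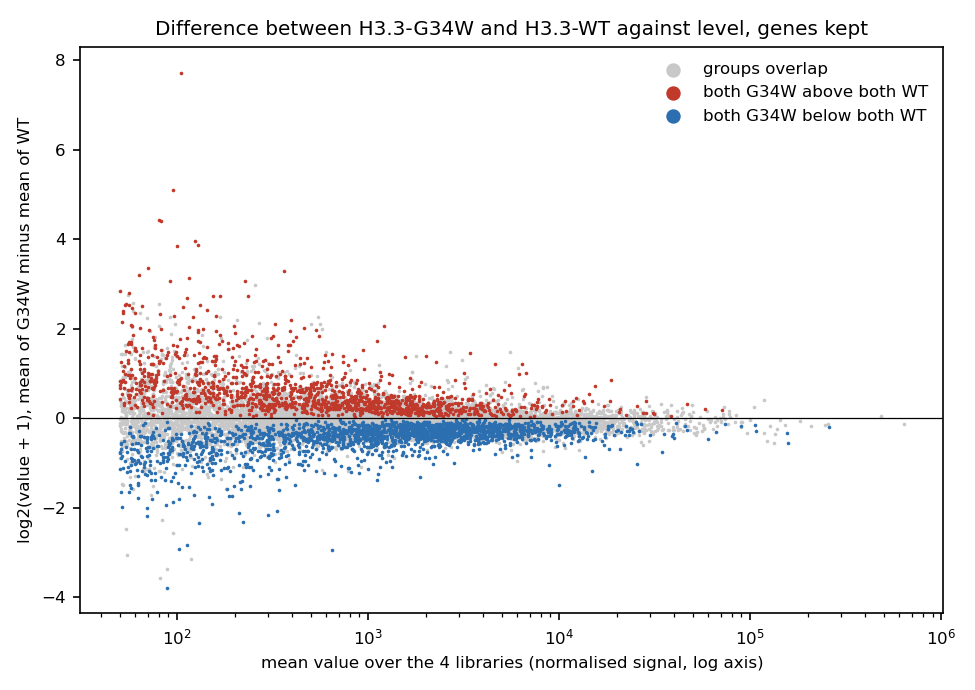
Each point is 1 kept gene, with its mean normalised signal over the 4 libraries on a log axis and the difference between the group means of log2(value + 1), G34W minus WT, on the vertical axis; red and blue points are the higher and lower genes, and grey points are genes whose groups overlap (Y-linked genes are not drawn). The differences narrow as the level goes up, and the higher genes reach further from 0 than the lower genes among genes of low level.

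The 2 G34W libraries did not contribute alike to the higher genes. G34W replicate 1 had more than 2 times the value of G34W replicate 2 for 137 of the 1349 higher genes (10.2%), and the reverse held for 9. Among the lower genes the counts were 13 and 54. Over all kept genes, these ratios were met 631 and 637 times. Of the genes set aside, 55 (29.7%) were also above both WT libraries in G34W replicate 2, beside 32.3% of all kept genes.

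**Figure D2:**
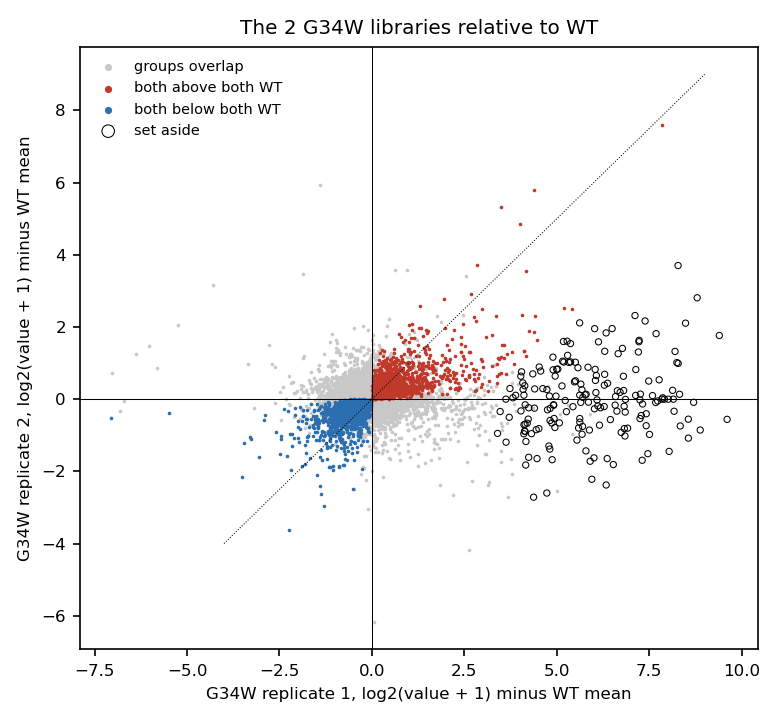
Each point is 1 gene, placed by its log2(value + 1) in G34W replicate 1 (horizontal) and G34W replicate 2 (vertical), both minus the mean of the WT libraries; red and blue points are the higher and lower genes, grey points have overlapping groups, open circles are genes set aside (Y-linked genes are not drawn), and the dotted line marks equal differences. The open circles spread far to the right with a median near 0 on the vertical axis, and among the red points far from 0 more lie below the dotted line than above it.

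AP002748.5 was the higher gene farthest from WT. It had 228 and 193 in the G34W libraries, was listed at 0 in both WT libraries and had 196 in EV replicate 2. Since it stood as high in EV as in G34W, it set WT apart rather than G34W. ABHD14A-ACY1, a readthrough transcript whose estimated counts can be shared with its neighbours, had 112 and 199 in G34W, 6.42 and 5.53 in WT and 11.4 in EV replicate 2. H2BS1, a histone H2B gene with close copies, had 97.8 and 261 in G34W, 21.1 in WT replicate 1 and was listed at 0 in WT replicate 2 and EV replicate 2.

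Among higher genes with like values in both G34W libraries was CADPS2 (ENSG00000081803; chromosome 7, 122318411 to 122886460 on GRCh38.p14), which primes dense-core vesicles for release. It had 352 and 289 in the G34W libraries (320.1 ± 44.5, SD, n = 2), 70.3 and 80.6 in the WT libraries (75.5 ± 7.31, SD, n = 2) and 133 in EV replicate 2. The log2 difference was 2.07 (SE 0.51), and EV lay between the groups but nearer to WT. PLA2G3 (ENSG00000100078; chromosome 22, 31134807 to 31140508), a secreted phospholipase that frees fatty acids from membrane lipids, had 299 and 229 in G34W, 75.5 and 37.2 in WT and 63.7 in EV replicate 2, a log2 difference of 2.28 (SE 0.60). PTPRD, a receptor tyrosine phosphatase of the cell surface, had 113 and 113 in G34W, 20.6 and 38.6 in WT and 19.05 in EV replicate 2. SLC25A21, a mitochondrial carrier for dicarboxylates, had 222 and 141 in G34W, 20.5 and 45.7 in WT and 43.98 in EV. For PLA2G3, PTPRD and SLC25A21, EV replicate 2 lay within or close to the WT values. OGDHL, related to a subunit of the oxoglutarate dehydrogenase complex, had 118 and 71.95 in G34W, 18.6 and 24.3 in WT and 19.6 in EV replicate 2, and so followed the same order.

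In another set, the higher values rested mostly on G34W replicate 1. LARGE2, a glycosyltransferase that extends the sugar chain of dystroglycan, had 428 in G34W replicate 1, 67.2 in G34W replicate 2, 9.46 and 12.1 in WT and 6.72 in EV replicate 2. TFCP2L1, a transcription factor of the grainyhead family, had 215 and 49.4 in G34W, 10.02 and 8.45 in WT and 8.05 in EV. CDS1, an enzyme of phospholipid synthesis, had 282 and 54.96 in G34W, 11.1 and 17.7 in WT and 20.1 in EV. That G34W replicate 2 also lay above WT and EV for these genes follows from how they were chosen. ADAM22, a surface protein of the ADAM family without protease activity, had 179 and 52.4 in G34W, 11.8 and 7.94 in WT and 0.40 in EV replicate 2. SLAIN1, a protein of growing microtubule ends, had 363 and 62.6 in G34W, 24.2 and 11.05 in WT and 6.96 in EV replicate 2. TMEM178B showed the same order, with 421 and 54.9 in G34W beside 7.71 and 10.3 in WT. TFCP2L1 is also known from pluripotent cells, and the source of the excess in G34W replicate 1 was not tested.

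Among lower genes, SCUBE3, a secreted and surface-bound protein that aids BMP signalling, was the farthest from WT: the nearest libraries of the groups were -1.92 apart in log2. Its values were 117 and 137 in G34W, 520.4 and 559.6 in WT and 535 in EV replicate 2. Its log2 difference was -2.08 with an SE of 0.42 in the present fit. PITX1 (ENSG00000069011; chromosome 5, 135027734 to 135034789), a homeobox factor that marks the hindlimb, had 27.1 and 44.95 in G34W, 163 and 115 in WT and 213 in EV replicate 2. FOXF1, a forkhead factor of lateral mesoderm, had 39.9 and 40.4 in G34W, 129 and 173 in WT and 53.1 in EV replicate 2. PITX1 in EV was as high as in WT, while FOXF1 in EV was nearer to G34W. The gene WT1, a zinc finger factor of mesoderm, had 14.3 and 38.7 in the G34W group, 104 and 293 in the group expressing H3.3-WT and 71.4 in EV. UPK3BL1 had 44.5 and 45.5 in G34W, 163 and 155 in WT and 68.7 in EV, with EV nearer to G34W as for FOXF1.

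MYF5, a factor of early muscle progenitors, had 31.2 and 11.4 in G34W, 79.4 and 286 in WT and 109 in EV replicate 2. In these bulk libraries, fewer cells of a type and less RNA per cell cannot be told apart. All 9 genes of the skeletal muscle marker list were matched and 6 were kept, of which MYF5 and DES, the muscle intermediate filament, were lower. DES had 611 and 1599 in G34W, 3667 and 1629 in WT and 2508 in EV replicate 2. Its value in G34W replicate 2 was thus only just below that in WT replicate 2. Summed over the list, the values were 2712 and 4403 in G34W, 7637 and 4104 in WT and 5236 in EV replicate 2. DES was the most abundant, none of the markers was at 0 in all 5 libraries, and G34W replicate 2 lay between the WT libraries in this sum. MYOD1, the master factor of the muscle lineage, had 139 and 699.9 in G34W and 916 and 526 in WT, so its groups overlapped. The part of muscle-like cells in the difference was not tested.

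KRT34, a hair keratin, had 227 and 197 in G34W, 507 and 716 in WT and 252 in EV replicate 2. ADRA2A, an adrenergic receptor, had 26.6 and 40.4 in G34W, 93.9 and 89.6 in WT and 99.97 in EV replicate 2. EV lay at or above the WT values for ADRA2A and near G34W for KRT34. PTH1R, the receptor for parathyroid hormone through which bone cells respond to it, had 30.96 and 12.5 in G34W, 82.7 and 80.4 in WT and 22.9 in EV replicate 2. IL24, a cytokine of the IL-10 family, had 37.4 and 22.1 in G34W, 85.4 and 80.9 in WT and 16.8 in EV. For PTH1R and IL24, EV stood with G34W, so that WT was the group apart. SKA1, which couples kinetochores to microtubules, had 116 and 239 in G34W, 497 and 516 in WT and 519 in EV replicate 2. CD70, a ligand of the TNF family, had 143 and 151 in G34W, 318 and 289 in WT and 292 in EV. MAB21L1, ELFN1 and TRHDE were also among the 12 lower genes with the widest distance from both WT libraries and EV together, with log2 differences of -1.11, -1.80 and -1.10.

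**Figure D3:**
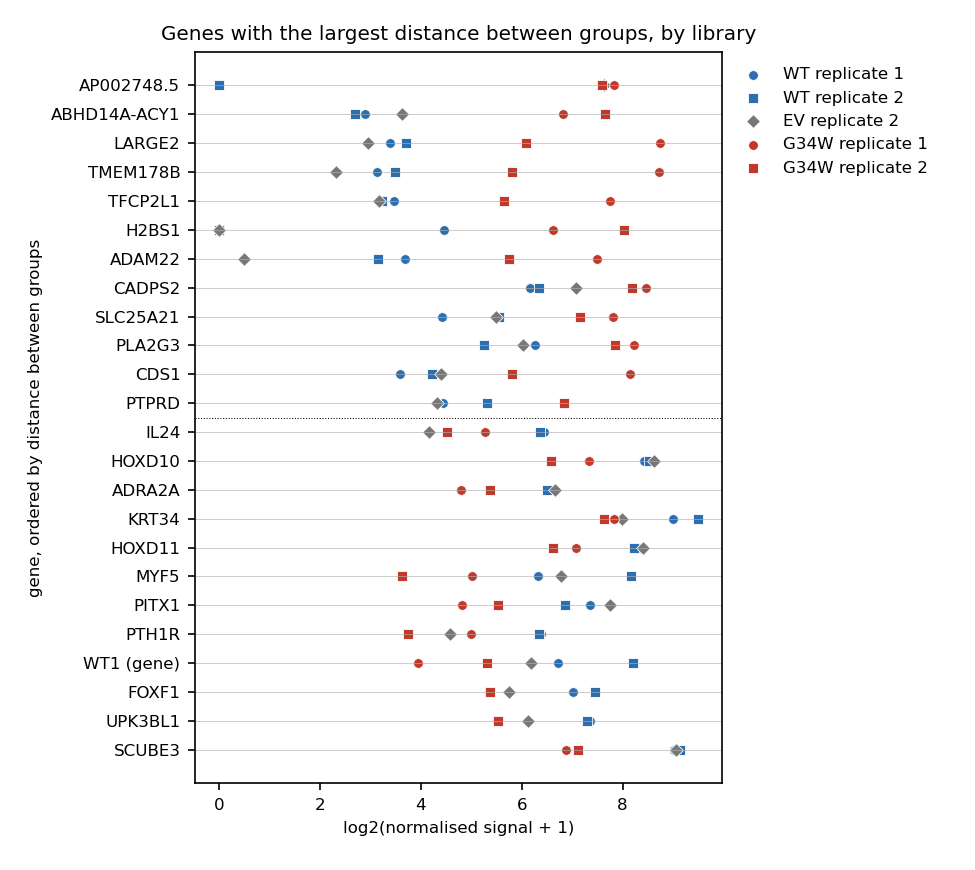
Values in each library, as log2(normalised signal + 1) on the horizontal axis, of the 12 higher and 12 lower genes with the widest distance between the nearest G34W and WT libraries, separated by the dotted line; red is G34W, blue WT and grey EV replicate 2, circles are replicate 1 and squares replicate 2. G34W replicate 1 stands far to the right of G34W replicate 2 for LARGE2, TMEM178B, TFCP2L1 and CDS1, and the grey points lie with G34W for AP002748.5, PTH1R and IL24.

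HOX genes had the largest share of lower genes among the lists with at least 12 kept members. They encode the homeobox factors that give cells a position along the body and limb axes, lie in clusters in the order of their domains, and are held silent by Polycomb where they are not used. Of 39 HOX genes, 28 were kept, 16 of them were lower (57.1%) and 0 were higher. EV replicate 2 lay on the WT side for all 16, beside 65.0% of all lower genes, and nothing is read from this. Their median log2 difference was -0.53 beside -0.07 for all kept genes, with -0.80 in G34W replicate 1 and -0.19 in G34W replicate 2. Rescaled to equal medians, 15 were lower and the median was -0.46. With G34W replicate 2 alone, 18 of the 28 lay below both WT libraries (64.3%), beside 21.9% of all kept genes. With G34W replicate 1 alone it was 24 (85.7%), beside 51.9%. In EV replicate 2 the median difference from WT was 0.20. The list was not tested as a set.

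HOXD10 and HOXD11, neighbours at the far end of the HOXD cluster, were, with HOXC11, the HOX genes with the widest distance between groups. HOXD11 (ENSG00000128713; chromosome 2, 176107280 to 176115679) had 133 and 97.3 in G34W, 319 and 299 in WT and 338 in EV replicate 2, a log2 difference of -1.43 (SE 0.47). HOXD10 (ENSG00000128710; chromosome 2, 176116778 to 176119937) had 159 and 94.8 in G34W, 342 and 368 in WT and 394 in EV, a difference of -1.52 (SE 0.47). For both genes G34W replicate 2 was the lower of the G34W libraries, so without G34W replicate 1 both differences would be wider. HOXC11, on another chromosome, had 49.7 and 48.1 in G34W, 94.8 and 179 in WT and 176 in EV replicate 2. HOXB7 and HOXD4, and the other HOX genes named here, were picked after their values were seen: HOXB7 had 838 and 802 in G34W, 1261 and 1443 in WT and 975 in EV, and HOXD4 had 117 and 112 in G34W, 167 and 174 in WT and 222 in EV. In all of these the values of the G34W libraries were below each of the other 3 libraries. HOXA13 and HOXB13, the last genes of their clusters, were lower as well. HOXA13 had 45.5 and 99.9 in G34W, 198 and 127 in WT and 186 in EV. HOXB13 had 26.1 and 61.97 in G34W, 130.0 and 87.4 in WT and 226 in EV. HOXA10, the kept HOX gene with the highest mean value, had 657 and 1338 in G34W and 1182 and 1292 in WT, and its groups overlapped.

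The lower HOX genes came from every cluster, 4 of 9 kept in HOXA, 4 of 7 in HOXB, 4 of 6 in HOXC and 4 of 6 in HOXD. The cluster medians were -0.37, -0.57, -0.58 and -0.41. By position within the clusters, genes of paralog groups 9 to 13, which act in the limb ends and hind body, had a median of -0.83, with 8 of 12 lower. Groups 1 to 8 had a median of -0.44, with 8 of 16 lower. In G34W replicate 2 alone these medians were -0.52 and -0.14. Of the 28 genes, 27 (96.4%) had a G34W mean below the WT mean, beside 60.3% of all kept genes, and HOXA7 was the exception at 0.11.

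**Figure D4:**
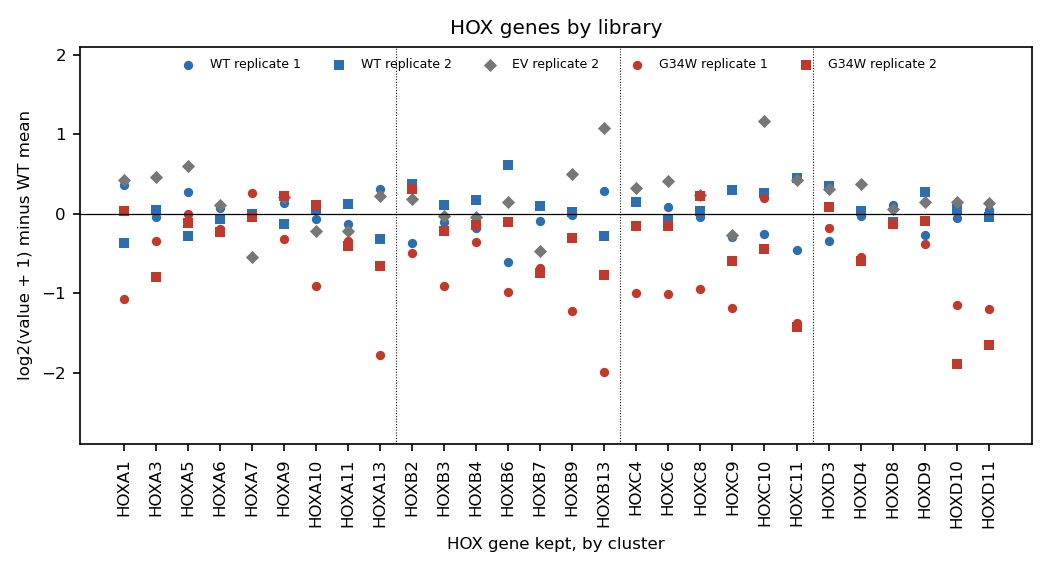
Each column is 1 of the 28 kept HOX genes, grouped by cluster with dotted lines between clusters, and the vertical axis is log2(value + 1) minus the mean of the WT libraries; red is G34W, blue WT and grey EV replicate 2, circles are replicate 1 and squares replicate 2. Both red symbols lie below both blue symbols for 16 genes, by the largest distance in HOXD10 and HOXD11, and most grey symbols lie near or above 0.

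Because HOXD10 and HOXD11 lie side by side and both lay below WT, the 250 bases before their starts are shown, with those of PTGS2 and HHIP, lower genes of other pathways described below. The sequences are from RefSeq on GRCh38.p14, each on its gene's strand, and motif letters are in capitals.
HOXD11, chr2:176107030-176107279, plus strand: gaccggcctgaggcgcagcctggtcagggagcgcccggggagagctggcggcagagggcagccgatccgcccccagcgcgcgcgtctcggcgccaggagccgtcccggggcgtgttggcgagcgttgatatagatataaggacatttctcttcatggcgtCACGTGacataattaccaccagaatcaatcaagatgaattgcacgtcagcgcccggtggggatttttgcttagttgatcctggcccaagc
HOXD10, chr2:176116528-176116777, plus strand: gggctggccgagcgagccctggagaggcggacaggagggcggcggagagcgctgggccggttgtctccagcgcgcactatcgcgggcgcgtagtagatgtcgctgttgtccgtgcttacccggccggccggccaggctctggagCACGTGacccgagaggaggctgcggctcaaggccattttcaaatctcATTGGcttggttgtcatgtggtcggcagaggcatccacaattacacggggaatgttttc
PTGS2, chr1:186680424-186680673, minus strand: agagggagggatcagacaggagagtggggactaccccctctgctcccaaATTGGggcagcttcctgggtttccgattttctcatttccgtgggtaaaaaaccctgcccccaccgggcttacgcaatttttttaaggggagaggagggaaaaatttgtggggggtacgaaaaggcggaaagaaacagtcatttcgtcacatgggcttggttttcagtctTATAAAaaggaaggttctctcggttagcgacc
HHIP, chr4:144645906-144646155, plus strand: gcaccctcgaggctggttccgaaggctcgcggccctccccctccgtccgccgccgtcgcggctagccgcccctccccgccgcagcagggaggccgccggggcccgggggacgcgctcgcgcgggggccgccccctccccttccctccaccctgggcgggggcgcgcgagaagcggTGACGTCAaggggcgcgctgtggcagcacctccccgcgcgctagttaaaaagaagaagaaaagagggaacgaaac

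Both strands were searched for AP-1 (TGANTCA), CRE (TGACGTCA) and ETS (CCGGAAGT) letters, the CCAAT box, the E-box (CACGTG) and the TATA box with the letters TATAAA. No motif of this list lies inside another, and ATTGG is the CCAAT box read on the opposite strand. HOXD11 held an E-box that begins 90 bases before the start, and HOXD10 an E-box at 106 and a CCAAT box at 59. PTGS2 held a CCAAT box at 201 and TATA letters at 32, and HHIP held CRE letters at 75. Of all 27305 promoters in the table, 6.49% held the E-box, 33.0% CCAAT, 11.1% TATA, 1.77% CRE, 6.60% AP-1 and 3.64% ETS letters. Over the 10232 kept genes with a promoter there the shares were 8.93% for the E-box, 35.3% CCAAT, 5.48% TATA, 2.92% CRE, 3.79% AP-1 and 7.30% ETS. Of the 28 kept HOX genes, lower or not, 13 had a promoter there. Among these 13, 30.8% held the E-box and 76.9% CCAAT. A match is a description of the letters and not a bound site. Shares over the higher and lower genes are not given, because only 77.4% of the kept genes had a promoter in the table and the check is void.

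Limb and mesoderm factors, a list of transcription factors that includes PITX1 and FOXF1, gave 11 lower (21.2%) and 3 higher of 52 kept, with a median of -0.30. EV replicate 2 lay on the WT side for all 11, beside 65.0% of all lower genes. LHX9, a LIM homeobox factor of the limb bud, had 43.4 and 63.6 in G34W, 185 and 129 in WT and 116 in EV replicate 2. TBX3 and TBX2, T-box factors of limb patterning, were picked after their values were seen. TBX3 had 3561 and 3034 in G34W, 4351 and 7431 in WT and 5999.7 in EV, and TBX2 had 693 and 826 in G34W, 989 and 1246 in WT and 909 in EV. In each of these genes the G34W values were below those of the other 3 libraries. GATA6, SHOX2 and SNAI1 were the higher genes of the list, with differences of 0.68, 0.34 and 0.35, and EV replicate 2 stood on the G34W side for each. GATA6 had 213.77 and 322 in G34W, 125 and 213.69 in WT and 295 in EV. Its G34W replicate 1 and WT replicate 2 were thus nearly equal. With G34W replicate 2 alone 15 of the 52 lay below both WT libraries (28.8%) and 13 above (25.0%), beside 21.9% and 32.3% of all kept genes. With G34W replicate 1 alone 31 lay below (59.6%), beside 51.9%.

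Secreted signals and their receptors differed gene by gene. In the insulin-like growth factor system, 4 of 18 kept genes were lower (22.2%) and 0 higher. IGF2 (ENSG00000167244; chromosome 11, 2129117 to 2149566), the fetal growth factor, had 185 and 237 in G34W, 438 and 627 in WT and 544 in EV replicate 2, a log2 difference of -1.32 (SE 0.40). IGF1R, the receptor for this ligand, had 878 and 1126 in G34W, 1346 and 1588 in WT and 1492 in EV. PAPPA, a protease that frees the growth factors from their binding proteins, had 4233 and 5503 in G34W, 5728 and 7699.7 in WT and 5924 in EV. Ligand, receptor and protease were each below WT and EV in both G34W libraries, by less in the receptor and protease than in IGF2.

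In hedgehog signalling, 3 of 12 kept genes were lower and 2 higher. HHIP (ENSG00000164161; chromosome 4, 144646156 to 144745271), a surface protein that binds hedgehog ligands and keeps them from the receptor, had 403 and 379.5 in G34W (391 ± 16.3, SD, n = 2), 835 and 1063 in WT (949 ± 161, SD, n = 2) and 756 in EV replicate 2. Its log2 difference was -1.27 (SE 0.33), and G34W was below the other 3 libraries. GLI3 and SUFU, intracellular members that restrain the pathway, were the other lower genes and differed by -0.22 and -0.23. EV replicate 2 lay between the G34W libraries for GLI3 (288, with 270.1 and 298 in G34W) and below both for SUFU (279.9, with 396 and 402 in G34W), so only HHIP of the lower genes had EV on the WT side. SMO, the signal transducer, differed by 0.41 and CDON, a co-receptor, by 0.44. CDON had 422 and 337 in G34W, 334 and 230 in WT and 334 in EV replicate 2. Its value in G34W replicate 2 was thus only just above WT replicate 1 and EV.

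In the prostaglandin list, PTGS2 (ENSG00000073756; chromosome 1, 186671791 to 186680423), the inducible cyclooxygenase, had 429 and 578 in G34W, 1058 and 1113 in WT and 893 in EV replicate 2, a log2 difference of -1.12 (SE 0.32). The list held 3 lower and 2 higher of 14 kept genes. The prostaglandin receptors went different ways. PTGER2 had 123 and 131 in G34W and 76.5 and 68.4 in WT, while PTGFR had 206 and 309.5 in G34W and 391.7 and 369 in WT. EV replicate 2 was on the WT side for PTGER2, at 98.5, and between the G34W libraries for PTGFR, at 288.

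Heparin-binding growth factors held 2 higher and 2 lower of 8 kept genes. MDK (ENSG00000110492; chromosome 11, 46380784 to 46383837), midkine, had 1197 and 940.1 in G34W (1069 ± 182, SD, n = 2), 337 and 489 in WT (413 ± 108, SD, n = 2) and 544 in EV replicate 2. The log2 difference was 1.38 (SE 0.34), and EV lay nearer to WT than to G34W. HBEGF, a ligand of the EGF receptor, had 3169 and 3344 in G34W, 4613 and 4997 in WT and 4574 in EV replicate 2. In FGF, PDGF and VEGF signalling, 5 of 32 kept genes were higher and 7 lower. FGF5, a secreted fibroblast growth factor, had 278 and 438 in G34W, 784 and 851 in WT and 561 in EV replicate 2. PGF, a VEGF family ligand, had 831 and 1216 in G34W, 1672 and 1688 in WT and 1847 in EV. PDGFRA, the PDGF receptor of mesenchymal cells, had 60.2 and 47.3 in G34W, 149.8 and 91.7 in WT and 116 in EV. These ligands and the receptor were lower. The higher gene with the widest distance between groups was PDGFRL, a protein related to the PDGF receptors, with 290.3 and 339 in G34W, 164 and 123 in WT and 204 in EV replicate 2. SPRY1, which dampens receptor tyrosine kinase signalling, had 273 and 162 in G34W, 96.8 and 76.9 in WT and 143 in EV replicate 2. DUSP6, a phosphatase that turns ERK off, had 4105 and 3540.2 in G34W, 2742 and 2934 in WT and 2874 in EV, and was higher by a narrower distance.

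In TGF-beta and BMP signalling, 10 of 50 kept genes were lower (20%) and 3 higher. Besides SCUBE3, LTBP1, which stores latent TGF-beta in the matrix, had 4648 and 4275 in G34W, 5965 and 7285 in WT and 6041 in EV replicate 2. The higher genes were ACVR2A and BMPR1A, receptors for activins and BMPs, and SMAD1, which carries the BMP signal to the nucleus. Their log2 differences were 0.67, 0.30 and 0.32. EV replicate 2 lay on the WT side for ACVR2A (317, with 401 and 428 in G34W), just under G34W replicate 2 for BMPR1A (2651, with 3214 and 2667) and between the G34W libraries for SMAD1 (1143, with 1057 and 1295). In WNT signalling, 6 of 36 were higher and 6 lower. ROR1, a receptor for WNT5A, had 983 in G34W replicate 1, 145 in G34W replicate 2, 90.2 and 84.2 in WT and 114 in EV replicate 2. WNT5B had 3886 and 4890.4 in G34W, 6162 and 7119 in WT and 6313 in EV replicate 2. In Notch signalling, 4 of 18 were higher and 1 lower, with a median of 0.21. EV replicate 2 stood as far from WT, at 0.23, and lay on the WT side for 2 of the 4, so the list as a whole did not set G34W apart from EV. With G34W replicate 2 alone 4 lay above both WT libraries (22.2%, beside 32.3% of all kept genes), and with G34W replicate 1 alone 7 did (38.9%, beside 21.5%); 4 lay below both in each case. NOTCH1 had 1348 and 2527 in G34W, 3246 and 4179 in WT and 3232 in EV replicate 2, and the higher NOTCH3 had 528 and 395 in G34W, 355 and 198 in WT and 500.4 in EV. The paralogous receptors thus went opposite ways, though EV stood with G34W for NOTCH3.

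The guidance genes held 2 higher and 2 lower of 41 kept. SEMA3E (ENSG00000170381; chromosome 7, 83363238 to 83649139), a secreted ligand of plexin D1, had 431 and 339.9 in G34W, 176 and 166 in WT and 191 in EV replicate 2, a log2 difference of 1.16 (SE 0.42). SEMA5A, a transmembrane semaphorin, had 612 and 579 in G34W, 822 and 1472 in WT and 689 in EV. CSF2, the cytokine GM-CSF that acts on myeloid cells, had 1782 and 1582 in G34W, 2839 and 2392 in WT and 2731 in EV replicate 2. It was 1 of 4 lower genes in each of the lists for osteoclast regulators, with 21 kept and 3 higher, and for chemokines, interleukins and NF-kB, with 45 kept and 3 higher. Among the osteoclast regulators, TNFSF11 (RANKL) had a mean under 50 and TNFRSF11B (osteoprotegerin), its decoy receptor, differed by -0.19, with EV replicate 2 between the G34W libraries.

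Matrix lists were divided. FBN1 (ENSG00000166147; chromosome 15, 48408313 to 48645709), the main protein of microfibrils, had 14512 and 13263 in G34W, 22981 and 22086 in WT and 25503 in EV replicate 2, a log2 difference of -0.70 (SE 0.26). LAMC3, a laminin chain, had 88.7 and 138 in G34W, 51.9 and 33.97 in WT and 47.3 in EV, and was higher. Of the matrix glycoproteins, 4 of 42 kept were higher and 5 lower. Matrix proteases and their inhibitors held 6 higher (20%) and 8 lower (26.7%) of 30. With G34W replicate 2 alone 8 lay above and 8 below both WT libraries (26.7% each, beside 32.3% and 21.9% of all kept genes), and with G34W replicate 1 alone 8 lay above (26.7%, beside 21.5%) and 17 below (56.7%, beside 51.9%). MMP2, which cuts gelatin and type IV collagen, had 2810.1 and 2621 in G34W, 1294 and 2162 in WT and 1427 in EV replicate 2. MMP15, a membrane-bound protease of the same family, had 601 and 221 in G34W, 137 and 165 in WT and 182 in EV, again with a G34W replicate 1 well above replicate 2. ADAMTS1 had 4986 and 4659 in G34W, 5977 and 12970.2 in WT and 8324 in EV replicate 2. Collagen chains gave 1 higher and 4 lower of 31 and collagen processing 2 and 2 of 23. Proteoglycans and sulfatases gave 3 and 3 of 24, with DCN, the collagen-binding proteoglycan decorin, at 201 and 298 in G34W, 506 and 397 in WT and 449 in EV replicate 2. Cadherins gave 1 higher and 5 lower of 21, and integrins 0 and 2 of 24.

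In the mitosis list the groups of most genes overlapped and the differences were small. Of 45 kept genes, 15 were lower (33.3%) and 0 higher, with a median log2 difference of -0.17, and 40 (88.9%) had a G34W mean below the WT mean, beside 60.3% of all kept genes. CENPE, the kinetochore motor, had 1054 and 1326 in G34W, 1697 and 1699.8 in WT and 2123 in EV replicate 2. CENPF, also of the kinetochore, had 4626 and 5147 in G34W, 6011 and 6469.8 in WT and 6882 in EV. MKI67, the proliferation marker, had 2136 and 2247 in G34W, 2516 and 3889 in WT and 2665 in EV. Each lay below WT and EV in both G34W libraries. EV replicate 2 was on the WT side for 12 of the 15, beside 65.0% of all lower genes. BIRC5, BUB3 and CCNB1 were the exceptions, named after their values were seen. The median of EV replicate 2 was also below WT, at -0.08. With G34W replicate 2 alone, 17 of the 45 lay below both WT libraries (37.8%, beside 21.9% of all kept genes), and with G34W replicate 1 alone 32 did (71.1%, beside 51.9%). After rescaling 17 were lower and 1 higher, with a median of -0.10. The DNA replication list had 6 higher (13.6%) and 7 lower (15.9%) of 44, with a median of -0.13, and 31 (70.5%) had a G34W mean below the WT mean, beside the same 60.3%. After rescaling 5 were higher and 9 lower (20.5%). In G34W replicate 1 alone 29 lay below both WT libraries (65.9%), and in G34W replicate 2 alone 9 did (20.5%). The difference between the mitosis and replication lists was not tested. MCM6, a subunit of the replicative helicase, had 5223 and 4606 in G34W, 3417 and 3274 in WT and 3454 in EV replicate 2, while another subunit, MCM7, picked after its values were seen, had 19459.6 and 22610.4 in G34W, 23400.4 and 24197 in WT and 21276 in EV. CCNE1, the cyclin of S phase entry, had 784 and 426 in G34W and 273 and 340.4 in WT.

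Of the ribosomal protein genes, 15 of 71 were higher (21.1%) and 1 lower, with a median of 0.12. EV replicate 2 lay on the WT side for all 15, beside 70.1% of all higher genes. However, the median of EV replicate 2 was -0.18 from WT, further than that of G34W and below WT. RPS21 had 6018 and 4618 in G34W, 2913 and 3911 in WT and 3317 in EV replicate 2, and RPS29 had 15881 and 12662 in G34W, 10008 and 10714 in WT and 9087 in EV. The excess lay mainly in G34W replicate 1, where the median was 0.24, beside 0.03 in G34W replicate 2 and 0.04 there for all kept genes. With G34W replicate 2 alone, 20 of the 71 lay above both WT libraries (28.2%), under the 32.3% of all kept genes. With G34W replicate 1 alone it was 49 (69.0%), beside 21.5%. After rescaling 15 were higher and 0 lower. Nuclear genes of the respiratory chain gave 7 higher (15.2%) and 4 lower of 46, and 16 higher after rescaling. COX7C, a small subunit of cytochrome c oxidase, had 6274 and 2524 in G34W, 2036 and 1919.7 in WT and 2018 in EV replicate 2.

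Among metabolic and stress lists, retinoid metabolism and response had 4 higher (22.2%) and 0 lower of 18. Taken alone, G34W replicate 2 put 10 above both WT libraries (55.6%, beside 32.3% of all kept genes), and G34W replicate 1 put 6 there (33.3%, beside 21.5%). G34W replicate 1 also put 9 below both (50%, beside 51.9%), G34W replicate 2 only 1, and the medians were -0.23 and 0.17, so the libraries differed in this list. DHRS3, which reduces retinal to retinol, had 3429 and 4632 in G34W, 2278 and 2339 in WT and 2366 in EV replicate 2, with EV beside WT and both G34W libraries well above. RARRES2, the chemoattractant chemerin, had 433 and 99.1 in G34W, 65.4 and 43.6 in WT and 37.9 in EV replicate 2, most of it in G34W replicate 1. Cholesterol synthesis had 4 higher (14.3%) and 1 lower of 28. SCD, the stearoyl-CoA desaturase, had 30844 and 17877 in G34W, 14500.1 and 11544 in WT and 17734 in EV. HMGCS1, an early enzyme of the pathway, had 3366 and 1564 in G34W, 1181 and 1457 in WT and 1191 in EV. EV lay on the WT side for SCD and HMGCS1, but for SCD just under G34W replicate 2. In the unfolded protein and amino acid response, 6 were higher (16.7%) and 1 lower of 36, with CHAC1, which degrades glutathione, at 1024 and 697 in G34W, 603 and 382 in WT and 508 in EV replicate 2. Heat shock and oxidative stress had 1 higher and 3 lower of 28. The higher gene was FTH1, the ferritin heavy chain that stores iron, with 20686 and 17389.8 in G34W, 9618 and 13904 in WT and 13968 in EV replicate 2. Glycolysis and hypoxia had 0 higher and 2 lower of 37, p53 targets 1 and 6 of 34, and contractile and YAP targets 1 and 4 of 44.

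The interferon response showed how far the G34W libraries could disagree. Of 48 kept genes, 0 were higher and 1 lower. In G34W replicate 1 the median difference from WT was -0.68, beside -0.20 for all kept genes. There 45 of the 48 lay below both WT libraries (93.8%, beside 51.9% of all kept genes). In G34W replicate 2 the median was 0.29, beside 0.04, and 27 lay above both (56.2%, beside 32.3%). Chemokines, interleukins and NF-kB behaved alike, with medians of -0.54 and 0.26. AP-1 and ETS factors gave 0 higher and 2 lower of 32.

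Genes of histone H3.3 itself and its chaperones gave 2 higher and 1 lower of 14 kept. H3-3A had 11161 and 5570.4 in G34W, 3793 and 4195 in WT and 4237 in EV replicate 2. H3-3B had 22029.8 and 26483 in G34W, 25288 and 26980.3 in WT and 23982 in EV, with overlapping groups. Both genes encode the same protein, and as the transgenes came from a Drosophila cDNA these values do not check the genotype. The excess of H3-3A over WT was larger in G34W replicate 1 than in replicate 2. CABIN1, a subunit of the HIRA chaperone complex, had 1460.3 and 2303 in G34W, 2671 and 2892 in WT and 3053 in EV replicate 2. Genes that write, read or erase H3K36 methylation gave 2 higher and 2 lower of 22, and those of PRC2 and DNA methylation 3 and 4 of 25. In the former list SMYD2, a lysine methyltransferase, had 1926 and 2221 in G34W and 2591 and 2787 in WT. In the latter CBX8, a Polycomb subunit that reads the silencing mark, had 248 and 209 in G34W and 313 and 360.0 in WT.

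**Figure D5:**
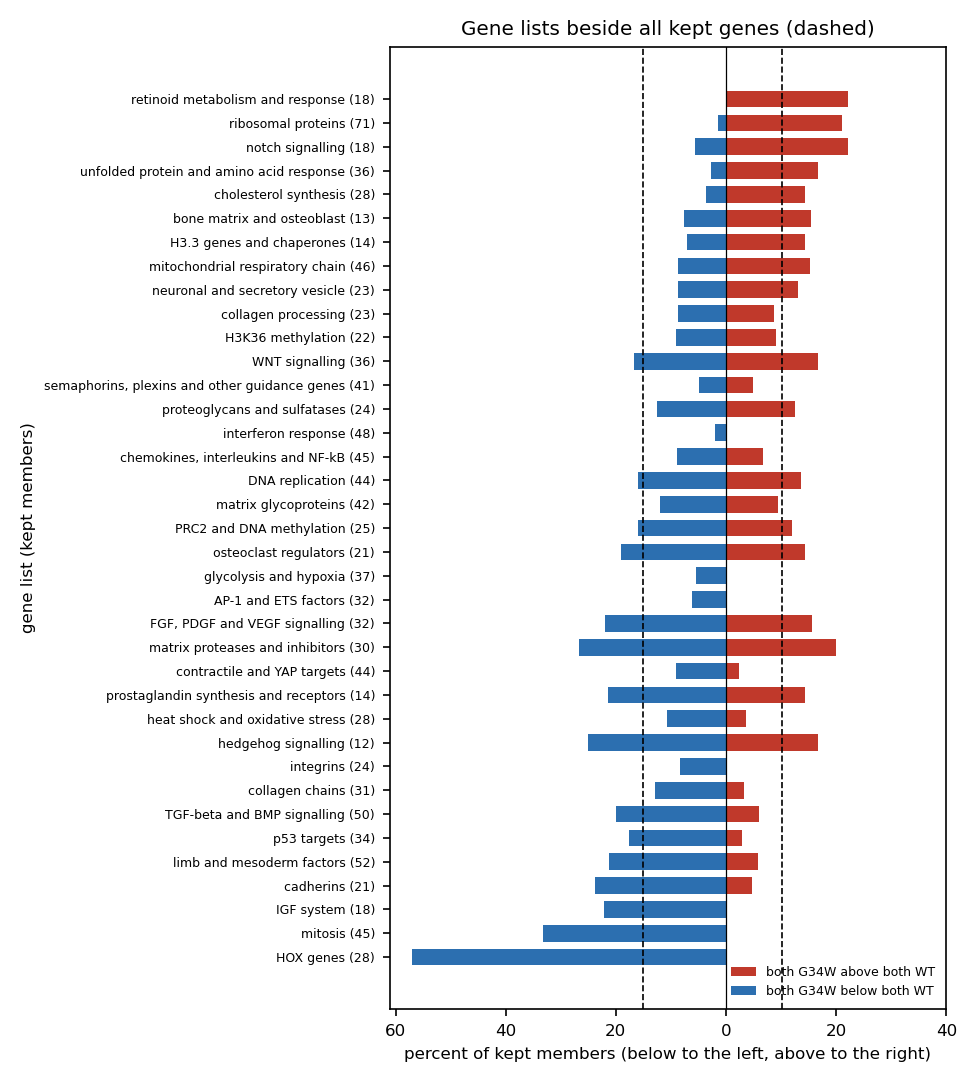
For each gene list with at least 12 kept members (number in brackets), the bar to the right is the percentage of kept members above both WT libraries in both G34W libraries and the bar to the left the percentage below both; dashed lines mark the 10.2% and 15.0% of all kept genes. HOX genes at 57.1% and mitosis at 33.3% reach furthest to the left, each with 0.0% to the right.

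The bone matrix and osteoblast list gave 2 higher and 1 lower of 13 kept. ENPP1, which makes the mineralisation inhibitor pyrophosphate, had 1811 and 1905 in G34W, 1700.4 and 1550.2 in WT and 1262 in EV replicate 2. The other higher gene was ATF4, a transcription factor of osteoblasts and of the amino acid response, with a log2 difference of 0.15, and the lower gene was PTH1R. Neuronal and secretory vesicle genes gave 3 higher and 2 lower of 23, and keratins 1 and 2 of 9. KRT19, a keratin of simple epithelia, had 1411 and 757 in G34W, 296 and 687 in WT and 331 in EV replicate 2. The epithelial marker list lost 3 of its 9 genes as set aside, but its sums still include them. These sums were 45093.9 and 37402 in G34W, 36430.1 and 47672 in WT and 47391 in EV replicate 2, with KRT18 the most abundant.

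Marker lists of other cells were read for their levels. Endothelial markers gave 2 lower of 4 kept, with sums of 3079 and 1828 in G34W, 3082 and 3451 in WT and 2895 in EV replicate 2. TEK, the angiopoietin receptor, was the most abundant, at 1548 and 782 in G34W and 1829 and 1958 in WT. Myeloid cell and osteoclast markers gave 0 in either direction of 5 kept, with sums of 1344 and 1417 in G34W, 1334 and 1594 in WT and 1569 in EV replicate 2. CD68 made up most of it, OCSTAMP was at 0 and AIF1 and DCSTAMP were under 10 in all 5 libraries. Neural markers gave 0 higher and 1 lower of 3 kept, and NES, an intermediate filament of progenitors, had 4005 and 7823 in G34W, 9565 and 13917 in WT and 11862 in EV replicate 2. SOX1 and NEUROD1 were under 10 in all 5. The neural marker sums, which include 2 genes set aside, were 11341 and 13731 in G34W, 13416 and 21249 in WT and 16039 in EV replicate 2. Adipocyte markers gave 1 higher of 2 kept, with CIDEC at 0 and LEP under 10 throughout, and chondrocyte markers gave 0 of 3. The adipocyte sums were 532 and 391 in G34W, 455 and 262 in WT and 379.9 in EV replicate 2, with PPARG the most abundant. They include LPL, a gene set aside, with 247 and 9.98 in G34W, 0 and 8.46 in WT and 0 in EV. The chondrocyte sums were 2704 and 2023 in G34W, 1617 and 2293 in WT and 1629 in EV replicate 2, with MATN3 the most abundant. Here CNMD, also set aside, is included, with 717 and 0 in G34W, 0 and 6.44 in WT and 4.25 in EV.

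Position and length were described because neither entered the choice of genes. On chromosome 5, 152 of 598 kept genes were lower (25.4%) and 47 higher (7.86%), and after rescaling 18.9% were lower. The median there was -0.22 in G34W replicate 1 and -0.04 in G34W replicate 2, and EV replicate 2 stood at -0.10 from WT, lying on the WT side for 59.9% of these lower genes, beside 65.0% overall. On chromosome 14, 20.2% were lower and on chromosome 19 it was 9.08%. Higher genes made up 16.0% on chromosome 13 and 6.36% on chromosome 22. By transcript length, the shortest group of 4 equal groups of kept genes (median 1734 bases) gave 12% higher and 11.9% lower, and the longest (median 7594 bases) gave 8.69% and 18.8%. The part of position and of length in the differences was not tested.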

How the data were processed

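RNA-seq signal of G34W and WT libraries, with EV replicate 2 as a check, was analysed. The authors quantified poly(A) reads with kallisto on Ensembl GRCh38 models (release 99), used tximport to sum to genes and normalised with DESeq2. The deposited signal is not whole counts. Low values fall mostly but not nearly all on multiples of 1 step per library, so depth is known only roughly, at 65904700 to 78599700 reads if a step is 1 read, whole reads were not recovered and no count model was run. Genes with a mean above 50 were fitted with limma 3.58.1 (R 4.3.3) on log2(value + 1), with a trended, robust prior and Benjamini-Hochberg adjustment at 0.05, two-sided. Genes at least 10 times higher in G34W replicate 1 than elsewhere were set aside. Genes named are the 12 per direction with the widest distance between nearest libraries from WT, or from WT and EV together, the 3 per direction in each of 47 gene lists, each list's gene of highest mean, markers, H3.3 genes, SCUBE3, TNFSF11, TNFRSF11B and those at the thresholds. Genes outside this rule are said to be picked after their values were seen. The members and lists were chosen with earlier results of these data known. Alternatives were other pseudocounts, filters, priors and scalings, a replicate block, added EV libraries and leaving out each library. Coordinates and promoters are from RefSeq on GRCh38.p14, found by symbol. Tables and figures used python 3.11.15, pandas 2.3.3 and matplotlib 3.10.9.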

Additional observations from a re-analysis of the deposited data

Results flagged for a closer look

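Genes outside the comparison gave a signal in G34W replicate 1 far above the control libraries. Over the 185 genes set aside, the values summed to 454176 in G34W replicate 1, 1.17% of its total. They summed to 8841 in G34W replicate 2, 8403 and 9493 in the WT libraries and 10461 in EV replicate 2. The genes were chosen for this excess, so the sum describes its size only.

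Over the 16 pluripotent cell markers, of which 12 were set aside and 3 kept (1 higher, 0 lower), the values summed to 86011 in G34W replicate 1. The sums were 4113 in G34W replicate 2, 5081 and 10327 in the WT libraries and 6312 in EV replicate 2. PODXL, also found in other cells, was the most abundant over the 5 libraries, and none of the markers was at 0 in all 5. Most of these genes were not used in the comparison.

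Mitochondrially encoded genes were picked after their values were seen. All 12 with a mean above 50 were set aside. They summed to 238856 in G34W replicate 1, 52.6% of the sum of the genes set aside, and to 5317 in G34W replicate 2, 4412 and 5994 in the WT libraries and 6479 in EV replicate 2. The source of these signals was not tested.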

How the results depend on the processing

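The count of genes with an adjusted p under 0.05 was 0 with both other pseudocounts, without the robust prior, with a mean above 200, without the genes set aside, rescaled, with the replicate block (0, with 575 at an unadjusted p under 0.05) and with EV replicate 2 added as a library. The 0 with 6 libraries (4 at an unadjusted p under 0.05) says nothing about stability, as EV replicate 1 was mostly 0. It was 2 without the variance trend and 1 with no filter on low values. With each library left out in turn it ranged from 0, without G34W replicate 1, to 226, without G34W replicate 2. It was 26 without WT replicate 1 and 2 without WT replicate 2. The higher genes then numbered 2879 to 4231 and the lower genes 2867 to 6874, since fewer libraries had to be passed. Means above 10 or 200, other thresholds for setting genes aside and rescaling kept both counts within 1.5 times.

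The share of higher genes with EV replicate 2 on the WT side, 70.1%, was 72.6% with a mean above 200 and 77.4% with the nearest libraries at least 0.5 apart. That of lower genes, 65.0%, was 70.3% rescaled and 84.2% at that distance. The cause of these shifts was not tested.

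Among the other results, 3079 values kept their direction and side of the threshold or moved within the spread, 36 moved by more and 19 passed the threshold only under an alternative. Over 48 medians (47 lists and all kept genes), rescaling turned the sign of 3, and leaving out a library that of 7 to 18. A pseudocount of 10 turned the sign of 0. With depth known only roughly, the precision rests on 2 libraries per group.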
